A study of Mus musculus with 12 samples.

Results

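The unfolded protein response and the integrated stress response were followed through 34 genes of the endoplasmic reticulum (ER) and of the stress signalling that serves it. The members were taken by gene name from a table of 54532 gene rows. All 34 were found, and all were protein coding and passed the filter on low counts in every comparison. Ddit3 had a second row of 105 bases with 0 counts, and the longer row was used. The libraries were bulk RNA-seq of liver and of white adipose tissue (WAT, inguinal by the labels) from male mice of 52 weeks that had fasted for 12 hours before tissue was taken. The 2 genotypes were wild type (WT) and a knockout (KO) whose label reads global miR-322-503-351 deleted, so there were 4 groups of 3 libraries. No Cre driver, strain or breeding control is given in the labels. Nor do they tell if a group's libraries come from separate animals, so each p-value measures only the spread between these libraries.

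Secreted and membrane proteins fold in the ER, where chaperones such as BiP (encoded by Hspa5) hold unfolded chains and protein disulphide isomerases form their disulphide bonds. When unfolded chains accumulate, the sensors IRE1 (Ern1), PERK (Eif2ak3) and ATF6 (Atf6) signal to the nucleus through spliced XBP1, ATF4 and cleaved ATF6, which raise transcription of chaperones and of the machinery that returns misfolded proteins to the cytosol for degradation (ERAD). PERK and other kinases that phosphorylate eIF2 lead to ATF4 and CHOP (Ddit3), which act on genes of amino acid supply and of recovery of translation. Hepatocytes make most plasma proteins and have abundant rough ER, while adipocytes secrete adipokines and have a smaller ER.

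Total counts were 14531438 to 15971178 per library, with 19295 to 22963 genes detected. No library was taken as a copy of another, since pairs within a group were further apart than sampling of reads would make them (chi-square over degrees of freedom, 9.01 to 69.7). Mir322 and Mir503 had 0 counts in all 6 KO libraries, against totals of 3 and 16 in WT liver and 37 and 48 in WT WAT. Mir351, which the label also names, had 41 counts in KO liver and 146 in KO WAT, against 9 and 33 in WT. The 8 hepatocyte markers summed to 1.54e+05 to 1.64e+05 normalised CPM in WT liver and to 1.43e+05 to 1.44e+05 in KO liver, where each library was below each WT one, and the 8 adipocyte markers to 1.50e+04 to 2.16e+04 in WAT. Levels below are CPM scaled with the trimmed mean of M values (TMM), called normalised CPM, and 3 counts correspond to 0.141 to 0.277 normalised CPM, for counting error only. The TMM factors were 0.731 to 0.777 in liver and 1.29 to 1.35 in WAT, so values set across the tissues depend on that scaling. In bulk tissue, fewer cells of a type and less RNA per cell cannot be told apart.

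The promoters of the members were searched for the elements through which these factors are known to act, since they tie the members to the arms of the response. RefSeq promoters on GRCm38.p6, from 250 bases before to 50 bases after the start, were found for 30 members. The ER stress response element (ERSE: CCAAT, 9 bases of any kind, CCACG, either strand) was in 9 of these 30 promoters, or 30%, and in 0.137% of 27025 genes with a promoter. These 9 were Hspa5, Hsp90b1, Calr, Canx, Dnajc3, Creld2, Pdia6, Derl3 and Syvn1, and Hsp90b1 held the element in 2 places. ERSE-II (ATTGG, 1 base, CCACG, either strand) was in Dnajb11 and Herpud1, or 6.67% of the members' promoters against 0.0444% of genes. The core of the C/EBP-ATF response element read by ATF4 (CARE: TGATGNAA, either strand) was in Asns, Chac1, Trib3 and Herpud1, or 13.3% against 4.51%. The core of the unfolded protein response element (TGACGTGG, either strand) was in 0 of these 30 windows and in 0.714% of genes. The ERSE was drawn up in part from chaperone promoters of this very kind, so its share among the members is a description. The stretches below are those of the members on which the comparisons turn, each read along the gene's own strand, 5′ to 3′. The fixed bases of the element are in capitals, and in the CARE core so is the base of any kind (N). Reversed copies read CGTGG and ATTGG, or TTGCATCA for the CARE core of Herpud1 and Chac1.
Hspa5 (ERSE, chr2:34772020-34772048, plus strand): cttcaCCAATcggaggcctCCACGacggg
Hsp90b1 (ERSE, chr10:86705633-86705661, minus strand): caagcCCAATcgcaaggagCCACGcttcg
Canx (ERSE, chr11:50325795-50325823, minus strand): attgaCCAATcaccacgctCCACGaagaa
Creld2 (ERSE, chr15:88819515-88819543, plus strand): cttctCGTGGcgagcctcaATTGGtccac
Derl3 (ERSE, chr10:75893237-75893265, plus strand): tctacCGTGGgacttccccATTGGctagc
Syvn1 (ERSE, chr19:6046527-6046555, plus strand): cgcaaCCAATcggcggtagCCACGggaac
Herpud1 (ERSE-II, chr8:94386368-94386396, plus strand): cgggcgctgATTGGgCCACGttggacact
Herpud1 (CARE core, chr8:94386306-94386335, plus strand): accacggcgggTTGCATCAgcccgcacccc
Asns (CARE core, chr6:7693214-7693243, minus strand): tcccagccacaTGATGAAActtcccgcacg
Chac1 (CARE core, chr2:119351038-119351067, plus strand): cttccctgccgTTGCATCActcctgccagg
In the stretches shown, the elements began between 23 bases (Asns) and 212 bases (Hsp90b1) before the RefSeq start, while those of Dnajb11 and Trib3, not shown, lay after it. The ERSE of Hspa5 began 65 bases before it. In Herpud1 the ERSE-II began 52 bases and the CARE core 112 bases before the start, so this gene was the only member with both an ERSE-II and a CARE core among the windows searched.

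In liver the set was led by folding enzymes and by Herpud1, and in fat by P4hb, Calr and Hspa5. Per kilobase of gene length, P4hb, the protein disulphide isomerase that is also a prolyl hydroxylase subunit, stood highest in WT liver at 606 ± 30 normalised CPM per kilobase (SD, n = 3). Calr, the lectin chaperone calreticulin, followed at 273 ± 55.3 and Herpud1, a membrane protein of the ERAD complex, at 260 ± 21.9, and these did not differ beyond their spread. Next in order were Hspa5 (188 ± 59.9), Hsp90b1 (171 ± 58.8), the ER paralogue of HSP90, and the thiol oxidoreductase Pdia3 (171 ± 45), which overlapped one another. The lowest members in WT liver were Asns, asparagine synthetase, at 0.363 ± 0.218 and Chac1, which degrades glutathione, at 2.09 ± 0.956 normalised CPM per kilobase. Eif2ak3 (3.06 ± 0.387) and the pseudokinase Trib3 (4.15 ± 1.25) stood just above them.

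In WT WAT, P4hb (128 ± 4.25), Calr (123 ± 12.1) and Hspa5 (98.6 ± 13) were the 3 highest members, again per kilobase. P4hb and Calr did not differ beyond their spread, nor did Hspa5 and Pdia3 (93.4 ± 8). Herpud1 stood at 26.7 ± 3.74 and was no longer among the leading members, whereas Derl1, a channel protein of ERAD, stood at 60.2 ± 8.4 and Xbp1 at 61.8 ± 12. Asns, lowest of all in liver, stood at 17.6 ± 4.66 normalised CPM per kilobase in fat. The lowest members in fat were Derl3 (1.26 ± 0.81), a derlin known from secretory cells, and Trib3 (2.93 ± 0.977).

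**Figure D1:**
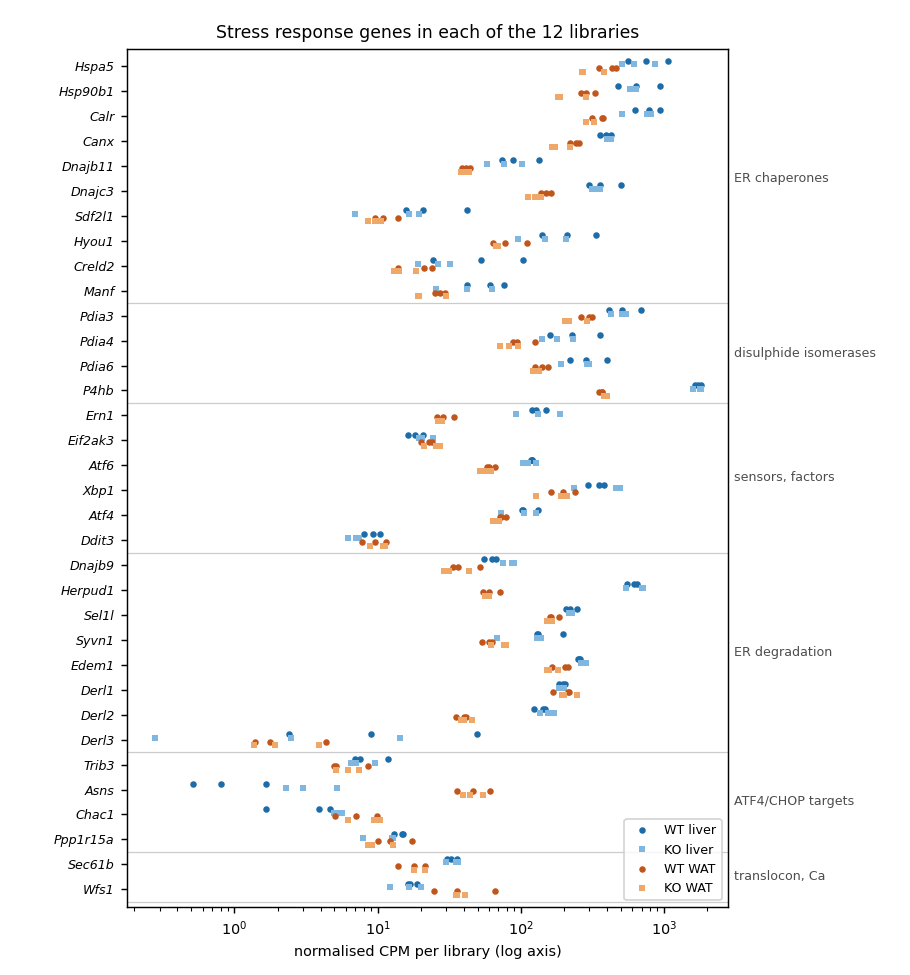
Levels of the 34 members in the 12 libraries, as normalised CPM on a log axis, with genes grouped by role and points marking single libraries by group. With this TMM scaling most folding genes lie higher in liver, Asns lies far lower in liver, and the liver points of Derl3 span from 0.277 to 49.8.

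The comparison of the tissues asks which members set liver apart from fat. With TMM factors, 25 of the 34 members were lower in WT WAT than in WT liver and 3 were higher at an adjusted p under 0.05, and 32.4% and 38.4% of the 16857 genes tested were called in those directions. The median log2 fold change was -0.94 for the members and 0.12 for all genes. Scaled to library totals alone, a setting added after seeing the data, 6 members were lower (17.1% of genes) and 9 higher (61.1% of genes), and the medians were -0.14 and 0.92. The change of scaling moved all genes by about the same amount, and the sign of many single members turned on it. The 9 members higher under library totals were Asns, Chac1, Wfs1, Eif2ak3, Ddit3, Derl1, Sel1l, Edem1 and Ppp1r15a.

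Members that were called lower in fat under both scalings in WT were Herpud1, P4hb, Ern1, Derl2, Dnajc3 and Syvn1. Herpud1 stood at 618, 552 and 652 normalised CPM in the WT liver libraries and at 71.8, 54.6 and 60.6 in those of WT WAT. Every liver library was above every fat library, by a wide margin. Its log2 fold change was -3.28 ± 0.16 (SE, adjusted p = 4.1e-10, edgeR's quasi-likelihood test with Benjamini-Hochberg adjustment) with TMM and -2.47 ± 0.15 with library totals.

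P4hb stood at 1743, 1814 and 1643 normalised CPM in WT liver and at 370, 351 and 373 in WT WAT, and its libraries were among the tightest of the set. The log2 fold change was -2.25 ± 0.12 (edgeR adjusted p = 1.5e-09), or -1.44 with library totals. Ern1, the sensor IRE1, stood at 120, 127 and 149 in liver and at 34.1, 26.1 and 28.7 in fat, a log2 fold change of -2.16 ± 0.21 (edgeR adjusted p = 5.8e-07), or -1.35 with library totals. Derl2, a derlin of the ERAD channel, stood at 124, 148 and 142 against 35.4, 41.8 and 40.5 (log2 fold change -1.82 ± 0.12, edgeR adjusted p = 1.1e-08, or -1.01 with library totals). None of these 3 genes had overlapping tissues. Exons of Derl2 share 231 bases with Mis12 on the opposite strand, which reached at most 326 counts in a library.

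Dnajc3, the co-chaperone P58IPK that inhibits PERK, fell from 506, 362 and 300 in WT liver to 162, 138 and 149 in WT WAT (log2 fold change -1.38 ± 0.17, edgeR adjusted p = 6.8e-06, or -0.57 with library totals). The sensor Atf6 stood at 120, 120 and 118 in liver and at 60.2, 58.7 and 66.4 in fat. Its log2 fold change of -0.95 ± 0.11 (edgeR adjusted p = 3.0e-06) became -0.15 with an adjusted p of 0.25 under library totals, so this call depended on the scaling. The same held for the leading chaperones. With TMM, Hspa5 was at -0.93 ± 0.25, Hsp90b1 at -1.22 ± 0.23 and Calr at -1.15 ± 0.19, all called by edgeR, and with library totals they were at -0.12, -0.42 and -0.34 and were not called.

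The transcription factors depended on the scaling too. With TMM, Xbp1 (-0.78 ± 0.26) and Atf4 (-0.59 ± 0.17) were called lower in WT WAT by edgeR, but with library totals they stood at 0.03 and 0.22, not called. The Xbp1 call was also lost with TMM when no filter was used (adjusted p = 0.051), without WT liver library 2 (adjusted p = 0.059), without WT WAT library 2 (adjusted p = 0.051) and without WT WAT library 3 (adjusted p = 0.073). Canx and Dnajb9 likewise turned from -0.71 and -0.61 to 0.09 and 0.19, the latter values not called. Sel1l and Edem1, which hold the ubiquitin ligase complex and trim mannose from misfolded glycoproteins, turned from called lower (-0.41 and -0.40) to called higher (0.40 and 0.41). Without the filter, the TMM calls of both were lost (adjusted p = 0.052 and 0.073), and that of Edem1 also with upper quartile factors (adjusted p = 0.067). Ppp1r15a, the phosphatase subunit GADD34 that reverses eIF2 phosphorylation, stood at -0.11 and not called with TMM, and at 0.70 and called higher with library totals.

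Asns was the member with the largest difference between the tissues, and in the opposite direction to the folding genes. It had 1.66, 0.511 and 0.807 normalised CPM in WT liver, from 19, 6 and 9 counts, and 61.4, 46.7 and 36.0 in WT WAT. The log2 fold change of fat over liver was 5.59 ± 0.38 (edgeR adjusted p = 3.8e-08) with TMM and 6.39 ± 0.38 with library totals. Wfs1, the ER membrane protein wolframin, stood at 16.8, 18.8 and 16.4 in liver and at 24.8, 36.0 and 65.7 in fat (1.28 ± 0.30, edgeR adjusted p = 0.0021, or 2.09 with library totals). Chac1 stood at 1.66, 3.92 and 4.66 in liver and at 7.03, 9.96 and 5.01 in fat (1.10 ± 0.35, edgeR adjusted p = 0.012, or 1.91 with library totals). The Chac1 call was lost without WT liver library 1 (adjusted p = 0.051) or without WT WAT library 2 (adjusted p = 0.072).

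The KO libraries gave the contrast of the tissues in other samples. With TMM, 23 members were lower (32.0% of genes) and 3 higher (36.4% of genes) in KO WAT than in KO liver, with a median log2 fold change of -0.99 against 0.08 for all genes. With library totals, 7 members were lower (16.0% of genes) and 8 higher (61.8% of genes), and the medians were -0.15 and 0.91. Herpud1 stood at 547, 710 and 718 normalised CPM in KO liver and at 56.5, 60.0 and 59.1 in KO WAT, a log2 fold change of -3.49 ± 0.16 (edgeR adjusted p = 2.8e-10). P4hb stood at 1811, 1792 and 1607 in KO liver and at 381, 402 and 394 in KO WAT (-2.15 ± 0.12, edgeR adjusted p = 2.4e-09). Here too the tissues lay far apart and the libraries of a tissue close together. Derl2 stood at 170, 155 and 137 against 45.5, 38.6 and 40.0 (-1.89 ± 0.12, edgeR adjusted p = 7.5e-09), and Ern1 at 132, 188 and 93.4 against 28.3, 26.7 and 26.6 (-2.34 ± 0.21, edgeR adjusted p = 2.9e-07). Herpud1, P4hb, Derl2 and Ern1, with Dnajc3, Dnajb9 and Hsp90b1, were the 7 called lower under library totals as well. Atf6 stood at 128, 112 and 103 in KO liver and at 62.0, 56.4 and 51.9 in KO WAT (-1.01 ± 0.11, edgeR adjusted p = 1.7e-06), but with library totals it was at -0.18 and not called.

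Canx, the membrane lectin chaperone calnexin, had 429, 401 and 408 normalised CPM in KO liver and 222, 173 and 166 in KO WAT. Its log2 fold change was -1.14 ± 0.14 with TMM (edgeR adjusted p = 4.7e-06) and -0.31 with library totals (adjusted p = 0.056). Asns was again higher in fat, at 2.29, 3.01 and 5.18 in KO liver and 44.5, 54.8 and 39.6 in KO WAT (3.73 ± 0.32, edgeR adjusted p = 3.9e-07). Wfs1 stood at 20.2, 12.2 and 16.7 in KO liver and at 36.2, 35.5 and 40.7 in KO WAT, with no overlap (1.19 ± 0.30, edgeR adjusted p = 0.0036). That call was lost once trends on GC share and length were removed (0.47, adjusted p = 0.23). Ddit3, the pro-apoptotic factor CHOP, stood at 6.18, 7.47 and 7.12 in KO liver and at 11.3, 8.92 and 10.9 in KO WAT. This difference of 0.59 ± 0.20 (edgeR adjusted p = 0.019) was called with TMM and lost without KO liver library 1 (adjusted p = 0.070), and it was 1.42 and called with library totals. Ddit3 shares 68 exon bases with Mars on the opposite strand, which reached 1010 counts in its highest library, while Ddit3 had 70 in its lowest, and the strand setting of the counting is not given in the sources used here.

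All 9 members with an ERSE had a negative log2 fold change in both tissue contrasts with TMM, with a median of -1.22 in WT and -1.14 in KO, but with library totals Canx in WT and Syvn1 and Creld2 in KO were above 0, none of them called. Those with a CARE core went both ways, from -3.28 (Herpud1) to 5.59 (Asns) in WT.

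**Figure D2:**
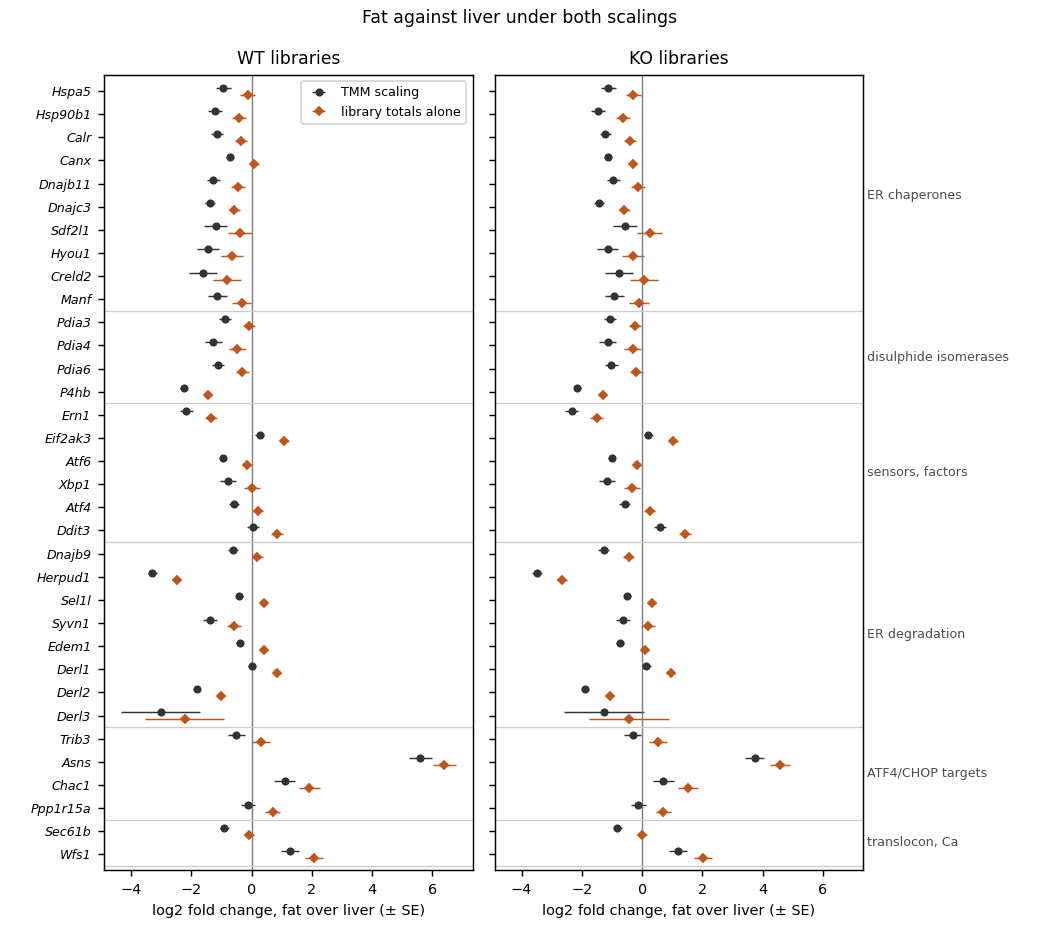
Log2 fold change of fat over liver for each member in WT and in KO libraries, with bars of ± 1 SE, once with TMM factors and once with library totals alone. Library totals shift each gene up by a similar amount, Herpud1, P4hb, Ern1 and Derl2 stay well below 0 under both, and Asns stays far above 0.

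The other genes of the pathway, from lists written for this comparison, showed the same dependence on scaling. Over all genes, 32.4% were lower and 38.4% higher in WT WAT with TMM, and 17.1% lower and 61.1% higher with library totals. The counts of the lists were not tested against these shares. Of 22 other ER folding genes, 15 were lower and 5 higher in WT WAT with TMM, and 10 lower and 8 higher with library totals. Qsox1, a sulphydryl oxidase (-2.06 and -1.25 under the 2 scalings), Pdia5 (-3.35 and -2.54) and Cnpy2 (-1.54 and -0.73) were lower in fat under both. Of 20 other ERAD genes, 12 were lower and 5 higher with TMM, and 5 lower and 10 higher with library totals. Of 23 genes of the translocon, signal peptidase and oligosaccharyltransferase, 16 were lower and 1 higher with TMM, and 3 lower and 10 higher with library totals. Ssr4 (-1.17 and -0.36) was lower and the oligosaccharyltransferase subunit Stt3b (0.93 and 1.73) was higher under both.

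Other targets of ATF4 went both ways, as did all genes. Of 36, 20 were higher (38.4% of genes) and 13 lower (32.4% of genes) in WT WAT with TMM. With library totals, 24 were higher (61.1% of genes) and 8 lower (17.1% of genes), which is near the shares over all genes. The serine synthesis enzymes Phgdh, at 0.175 normalised CPM in WT liver and 433 in WT WAT, and Psat1, at 0.645 and 138, were higher in fat like Asns. Shmt2, the mitochondrial serine hydroxymethyltransferase, went the other way, from 371 in liver to 20.3 in fat (-4.19 with TMM and -3.38 with library totals).

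In liver, no member was called between the genotypes, and 21 of 13529 genes tested, or 0.155%, were called. The median log2 fold change of KO over WT was -0.14 for the members and 0.00 for all genes, with 23 of 34 members lower against 50.1% of all genes. At an unadjusted p under 0.05, 2 members were higher (5.97% of genes), namely Dnajb9 and Asns, and 0 were lower (6.24% of genes). The counts of lower members rested on single libraries: without WT liver library 1, 15 of 34 were lower with a median of 0.01, and without KO liver library 3, 19 were lower with a median of -0.02. Over all libraries left out in turn, the median ran from -0.25 to 0.01.

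Dnajb9, the co-chaperone ERdj4 that binds BiP and IRE1 and serves ERAD, stood at 55.4, 63.3 and 67.6 normalised CPM in WT liver and at 90.6, 87.7 and 75.3 in KO liver. The groups did not overlap, and the log2 fold change was 0.44 ± 0.11 (adjusted p = 0.18, edgeR's quasi-likelihood test with Benjamini-Hochberg adjustment). Asns stood at 1.66, 0.511 and 0.807 in WT liver and at 2.29, 3.01 and 5.18 in KO liver, from 26, 33 and 56 counts in KO. Each KO library was above each WT library, and the log2 fold change was 1.79 ± 0.47 (adjusted p = 0.19, edgeR). Asns was called with DESeq2 (adjusted p = 0.044) and both genes were called by edgeR when no filter on low counts was used (adjusted p = 0.0048 for Asns and 0.014 for Dnajb9).

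Chac1 and Edem1 were also higher in each KO liver library than in each WT one, which makes 4 members without overlap in this direction (10.2% of genes). Chac1 stood at 1.66, 3.92 and 4.66 in WT and at 4.94, 5.47 and 5.64 in KO (0.64 ± 0.34, edgeR adjusted p = 0.46). Edem1 had a log2 fold change of 0.10. Ddit3 and Ppp1r15a were lower in each KO library, the only 2 members without overlap in that direction (8.83% of genes). Ddit3 stood at 8.03, 10.5 and 9.32 in WT and at 6.18, 7.47 and 7.12 in KO (-0.43 ± 0.20, edgeR adjusted p = 0.41), and Ppp1r15a at 15.1, 14.9 and 13.0 in WT and 12.9, 12.6 and 7.86 in KO (-0.38 ± 0.20, edgeR adjusted p = 0.48). Of the 4 ATF4 and CHOP targets, 2 had positive and 2 negative values, with a median of 0.22.

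The sensor Eif2ak3 stood at 18.2, 20.9 and 16.2 in WT liver and at 20.5, 24.5 and 19.6 in KO liver (0.21 ± 0.15, edgeR adjusted p = 0.60), with groups that overlapped. Ern1, Atf6, Xbp1 and Atf4 had log2 fold changes of 0.05, -0.07, 0.20 and -0.16, each smaller than its SE.

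The chaperones were the group with the widest spread between libraries of the same genotype. Of 10 chaperones 9 had negative values, with a median of -0.30, and the 4 protein disulphide isomerases were all negative, with a median of -0.18, but none was called. Creld2, a chaperone induced by ATF6, stood at 104, 52.8 and 24.5 in WT liver and at 32.2, 26.4 and 19.0 in KO liver, so WT library 1 alone was far above the rest and WT library 3 lay within the KO range (-1.23 ± 0.62, edgeR adjusted p = 0.51). Sdf2l1, a BiP cofactor, stood at 42.0, 20.9 and 15.9 in WT and at 19.4, 16.7 and 6.93 in KO, with the same library on top (-0.88 ± 0.56, edgeR adjusted p = 0.59). Hspa5 itself stood at 1064, 757 and 562 in WT and at 876, 625 and 515 in KO, which overlapped (-0.25 ± 0.31, edgeR adjusted p = 0.78).

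As a mean over the 10 chaperones of log2(normalised CPM + 1), the WT liver libraries stood at 8.14, 7.60 and 7.16 and the KO ones at 7.58, 7.31 and 6.87. WT liver library 1 was the highest of the 6 liver libraries for 18 of the 34 members, and for 17.7% of 13388 genes with a mean of at least 10 counts. KO liver library 3 was the lowest for 19 members, and for 21.9% of these genes. Across genes, the log2 fold change in liver fell with GC share (Spearman rho -0.44 over 13521 genes, which are not independent), and the members' median GC share was 50.6% against 49.4% of all genes. With the trend on GC and length removed, the members' median was -0.10, and the part of other differences between libraries was not tested. Over the 6 liver libraries, 14 members differed by more than 2-fold between the highest and the lowest library, against 4 members in fat. The share over all genes was not computed, so these counts do not set the members apart from other genes. P4hb (1.13-fold) and Derl1 (1.11-fold) were the steadiest in liver of those examined after their values were seen, and Asns (10.1-fold), Sdf2l1 (6.05-fold) and Creld2 (5.45-fold) were among the most variable.

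Cell type markers differed in liver as well, with no call by edgeR. The hepatocyte sums, given above, did not overlap between the genotypes, with 5 of 8 markers negative and a median of -0.05. Of these markers 2 were higher and 2 lower at an unadjusted p under 0.05 by edgeR. Macrophage markers were positive for 6 of 7 and B cell markers for all 3 tested (medians 0.08 and 0.20). Negative values were held by 3 of 4 endothelial, 3 of 5 fibroblast and stellate cell and 3 of 5 adipocyte markers (medians -0.17, -0.18 and -0.15). Over all genes, 50.1% were negative. Of the adipocyte list, Adipoq, Plin1 and Lep were at 0 in WT liver and Lep in KO liver. Of 4 plasma cell markers tested 3 were positive (median 0.85), 2 of them at an unadjusted p under 0.05 by edgeR. The list summed to 293 to 318 in WT and 306 to 354 in KO, with Tnfrsf17 at 0 in both groups. With TMM, 8 of the 9 markers tested across the tissues were called higher in WT WAT and 1 lower. Yet WT WAT library 1 summed to 278, below each liver library, so the liver sums cannot be read as plasma cell content. Of the list written for keratinocytes and gland epithelium, the 3 genes tested in liver, Krt8, Krt18 and Epcam, were positive (median 0.29). The list summed to 302 to 351 in WT and 347 to 425 in KO liver, against 21.3 to 47.3 in fat. Krt5 was at 0 in both liver groups and Krt14 in KO, so in liver this list cannot be read as a keratinocyte marker. The part of these markers in the chaperone values was not tested.

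Derl3 varied most, and is described because of its values. It stood at 49.8, 8.95 and 2.42 normalised CPM in WT liver and at 2.47, 14.4 and 0.277 in KO liver, from 571, 105 and 27 counts in WT and 28, 158 and 3 in KO. The highest library was 180-fold above the lowest, a ratio that rests on the 3 counts of KO liver library 3. The genotypes overlapped in part (log2 fold change -1.84 ± 1.64, edgeR adjusted p = 0.70). WT liver library 1 lay above and KO liver library 3 below all other liver libraries. In fat the same gene stood between 1.36 and 4.36 in all 6 libraries.

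**Figure D3:**
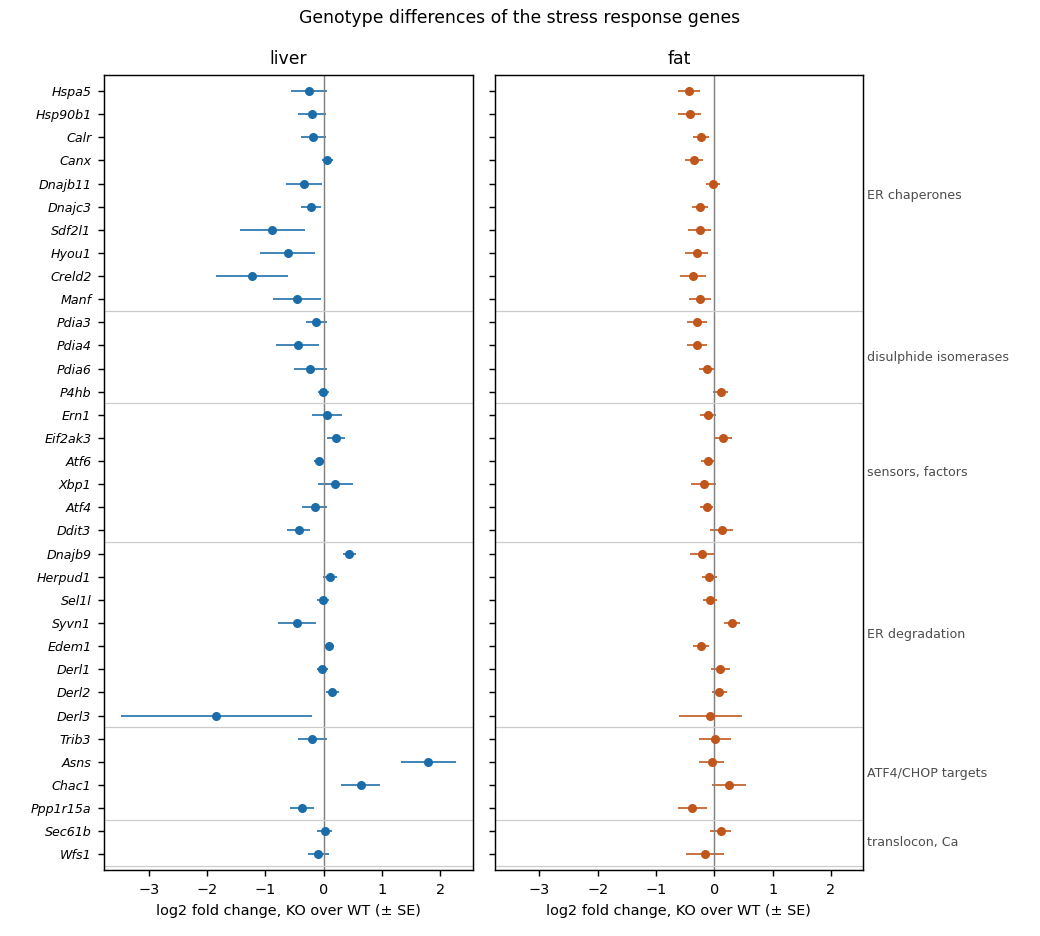
Log2 fold change of KO over WT for each member in liver and in fat, with bars of ± 1 SE, grouped by role. Most points lie between -0.5 and 0.5, Asns (1.79), Derl3 (-1.84) and Creld2 (-1.23) stand out in liver, and no member was called in either tissue.

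**Figure D4:**
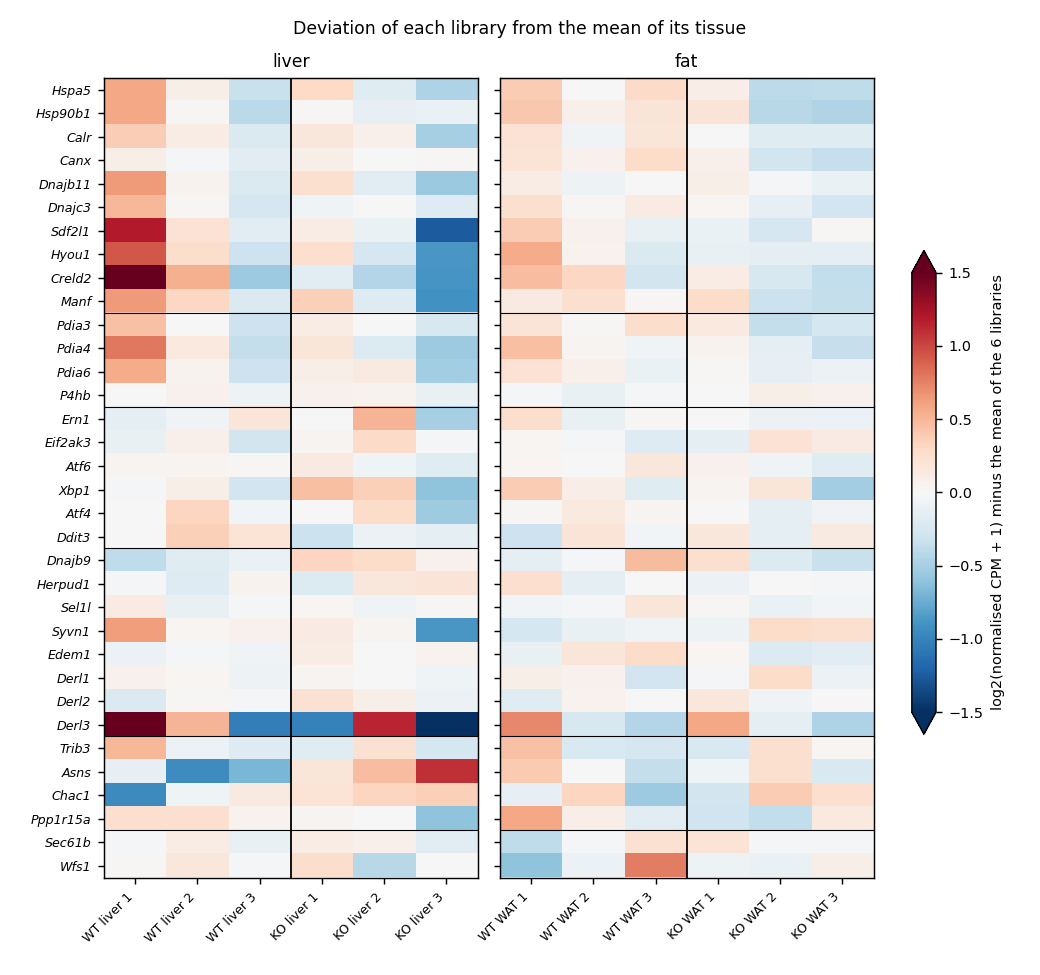
Each member's log2(normalised CPM + 1) in a library minus its mean over the 6 libraries of that tissue, as a heat map with genes in rows and libraries in columns. WT liver library 1 is above and KO liver library 3 below the mean for most chaperones and isomerases, and most members vary less between the fat libraries.

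The other lists of the pathway held no call in liver by edgeR. Of 11 cytosolic heat shock genes tested, all 11 were lower in KO liver (50.1% of genes), with a median of -0.35. Of these, 7 had an unadjusted p under 0.05 by edgeR (6.24% of genes in this direction). The part of single libraries and of GC share in these values was not tested. Hspa1b, an inducible HSP70 gene with a near-identical neighbour, stood at 15.5 ± 4.93 in WT and 8.07 ± 1.63 in KO (-0.95 ± 0.25, edgeR adjusted p = 0.20). Of 13 eIF2 kinases and factors, 11 were higher, with a median of 0.11, among them Eif2s1 (0.36 ± 0.12, edgeR adjusted p = 0.28). Of 30 other ATF4 targets tested, 19 were lower. Cth, which makes cysteine, stood at 0.42 ± 0.09 (edgeR adjusted p = 0.13), and the hormone gene Fgf21 at -1.79 ± 0.40 (edgeR adjusted p = 0.16), with 8.77 normalised CPM in WT and 2.54 in KO. Other ER folding genes were split evenly, 11 lower of 22.

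In fat, no gene was called between the genotypes (0 of 15919, or 0.00%), so no member was. At an unadjusted p under 0.05, edgeR gave 695 higher and 521 lower genes, and DESeq2 called 43 genes, of which 0 were members. Of the members, 25 of 34 had negative values with a median log2 fold change of -0.13, against 50.4% and 0.00 for all genes. All 10 chaperones were on the negative side (median -0.28), as were 3 of 4 protein disulphide isomerases (median -0.21). With libraries left out in turn, 21 to 26 members were negative and the median ran from -0.20 to -0.08. WT WAT library 1 was the highest fat library for 17 of the 34 members, and for 18.6% of 15852 genes with a mean over 10 counts. KO WAT library 3 was the lowest for 12 members, and for 15.9% of these genes. Without KO WAT library 2, 0 members and 505 genes had an unadjusted p under 0.05 by edgeR. Without KO WAT library 3, these were 0 members and 679 genes. The trend of fold change on GC share was positive in fat (rho 0.48 over 15901 genes), and the members' median was -0.16 once it was removed together with length.

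Hspa5 and Canx were the 2 members lower at an unadjusted p under 0.05 (3.27% of genes), and 0 were higher (4.37% of genes). Hspa5 stood at 462, 356 and 433 normalised CPM in WT WAT and at 381, 271 and 272 in KO WAT. KO library 1 lay within the WT range, and the log2 fold change was -0.43 ± 0.18 (adjusted p = 0.65, edgeR). Canx stood at 244, 221 and 254 in WT and at 222, 173 and 166 in KO, with the same KO library inside the WT range (-0.35 ± 0.15, adjusted p = 0.65, edgeR).

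Hsp90b1 had 333, 265 and 288 in WT WAT and 287, 188 and 183 in KO WAT (-0.42 ± 0.20, edgeR adjusted p = 0.66). Dnajc3 had 162, 138 and 149 in WT and 140, 126 and 112 in KO (-0.25 ± 0.13, edgeR adjusted p = 0.67). In both genes KO library 1 overlapped the WT libraries and the other two KO libraries lay below them. The only member whose KO libraries were all below the WT ones was Atf4 (7.40% of genes), at 72.3, 79.3 and 73.3 against 71.2, 64.2 and 68.7 (-0.13 ± 0.11, edgeR adjusted p = 0.76).

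In the other direction, P4hb was the only member without overlap (7.16% of genes), at 370, 351 and 373 in WT and 381, 402 and 394 in KO, a log2 fold change of 0.11 ± 0.13 (edgeR adjusted p = 0.83). Syvn1, the ubiquitin ligase HRD1 of ERAD, stood at 53.9, 60.1 and 63.0 in WT WAT and at 61.7, 78.8 and 77.0 in KO WAT (0.31 ± 0.13, adjusted p = 0.65, edgeR). Its exons share 91 bases with Mrpl49 on the opposite strand. Eif2ak3 stood at 23.8, 23.0 and 20.2 in WT and at 21.0, 27.3 and 25.5 in KO (0.15 ± 0.15). Chac1 stood at 7.03, 9.96 and 5.01 in WT and at 6.22, 10.4 and 9.41 in KO (0.25 ± 0.30). Both genes overlapped between the genotypes and had values no larger than their SE. Asns, whose genotypes did not overlap in liver, stood at 61.4, 46.7 and 36.0 in WT WAT and 44.5, 54.8 and 39.6 in KO WAT. In fat its groups overlapped fully (-0.05 ± 0.21).

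Markers of other cell types moved beside these values in fat. All 7 T and NK cell markers had negative log2 fold changes (median -0.98) and summed to 7.54 to 13.1 normalised CPM in WT and 3.02 to 7.86 in KO. The 6 B cell markers were negative too, with sums of 10.1 to 61.9 in WT and 11.0 to 31.1 in KO, and 7 of 9 plasma cell markers were negative, with sums of 278 to 1474 and 546 to 1449. The 4 endothelial markers were negative, with sums of 564 to 797 and 533 to 643, and all 8 hepatocyte markers were positive, with sums of 623 to 3759 and 1655 to 3254. The 3 keratinocyte and gland epithelium markers tested, Krt18, Krt8 and Krt14, were all positive (median 0.69) and each had an unadjusted p under 0.05, with sums over the list that did not overlap, at 21.3 to 30.4 in WT and 36.1 to 47.3 in KO. The 2 skeletal muscle markers tested were negative (median -0.61), with sums of 48.4 to 159 and 43.9 to 93.3. Adipocyte markers themselves were positive for 6 of 8 (median 0.14). Macrophage markers were negative for 4 of 7 (median -0.23), and fibroblast and stellate cell markers for 3 of 6 (median -0.03). Of these lists, Krt5 was at 0 in both fat groups and Ckm in WT WAT. None of the markers was called by edgeR, and their part in the chaperone values was not tested. Of the other lists in fat, cytosolic heat shock genes were negative for 11 of 12 (median -0.09) and mitochondrial chaperones and proteases were positive for 9 of 10 (median 0.09), with no call.

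The difference between the genotype effects of the tissues, fat minus liver, was tested with all 12 libraries in a single model, and 0 of 16857 genes (0.00%) were called. At an unadjusted p under 0.05 edgeR gave 1160 higher and 1095 lower genes, and DESeq2 called 199. Among the members, 3 were lower at an unadjusted p under 0.05 (6.50% of genes) and 1 higher (6.88% of genes). Asns had a difference of -1.86 ± 0.52 (adjusted p = 0.23, edgeR), with KO above WT in liver and overlapping it in fat, and DESeq2 called it (adjusted p = 0.025). For Dnajb9 the difference was -0.66 ± 0.25 (adjusted p = 0.30, edgeR). Its fat libraries stood at 33.5, 36.3 and 52.0 in WT and 43.7, 31.8 and 29.1 in KO, which overlapped, while its liver libraries did not.

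Canx had a difference of -0.43 ± 0.19 (adjusted p = 0.36, edgeR), with liver libraries of 426, 393 and 357 in WT and 429, 401 and 408 in KO. Syvn1 went the other way, with 0.75 ± 0.33 (adjusted p = 0.37, edgeR). Its liver libraries stood at 197, 130 and 133 in WT and at 138, 131 and 68.9 in KO, where KO library 3 was well below the rest. The remaining members taken by the naming rule were Ddit3 (0.54 ± 0.28), Creld2 (0.85 ± 0.64), Sdf2l1 (0.61 ± 0.55) and Edem1 (-0.34 ± 0.17), and none passed the test.

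**Figure D5:**
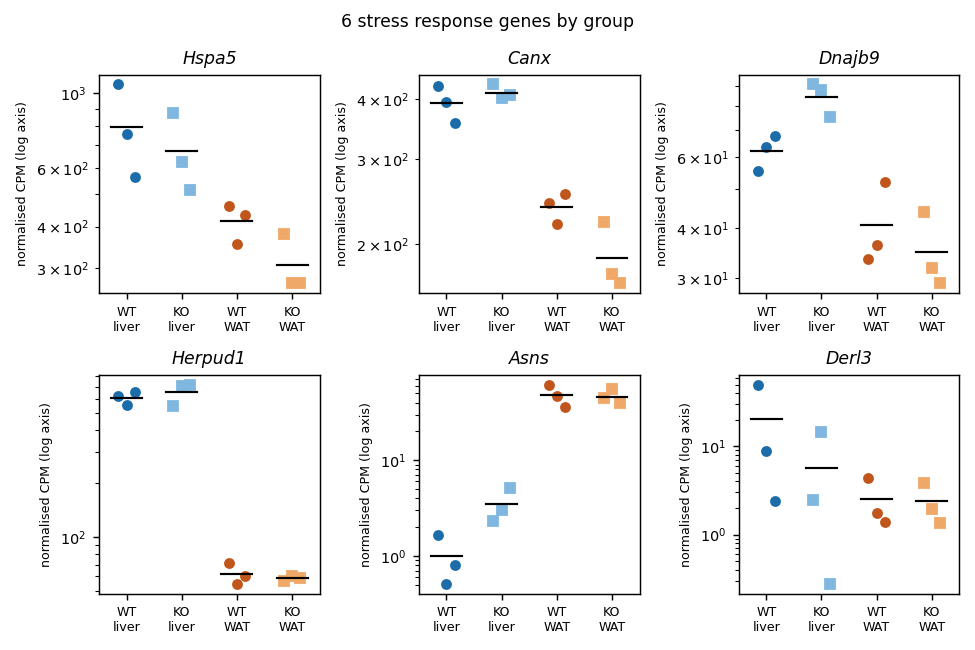
Levels of Hspa5, Canx, Dnajb9, Herpud1, Asns and Derl3 by group, as normalised CPM on a log axis, with a point for each library and a bar at the mean of 3 libraries. In liver the KO points of Dnajb9 and Asns lie above the WT points, in fat 2 of the 3 KO points of Hspa5 and Canx lie below WT, and Herpud1 lies higher in liver in both genotypes.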

How the data were processed

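Per the labels' protocols, RNA came from TRIZOL extraction, and 2 µg of total RNA entered the NEBNext Ultra Directional kit. Values as deposited are whole-number read counts for each gene, without normalisation. Per the submitters' processing notes, the tools were CASAVA 1.8 and HISAT2, and GRCm38 and mm10 are the builds listed. Which program counted the reads, with which strand setting and annotation, is not given in the sources used here. Depth was 14531438 to 15971178 counts per library. The floor of 3 counts covers counting error only, while each SD and SE includes the spread between libraries.

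With edgeR 4.0.16 in R 4.3.3 (TMM, filterByExpr, robust quasi-likelihood F test), genotype was tested within each tissue, and all 12 libraries entered the model for the tissue contrasts and the interaction. The threshold was a Benjamini-Hochberg adjusted p under 0.05 over all genes tested. Every p per gene is from edgeR unless another tool is named. Fold changes are log2, with SE. The scripts were tested on simulated data.

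The members and the lists were chosen with earlier results of these data known, among them a lower unfolded protein response list, so no direction here is independent support. By the naming rule, values in each library are given for members past the threshold (up to 6 per direction by adjusted p), and in the genotype comparisons also for the 4 with the smallest unadjusted p per direction. Derl3, Hyou1, Atf4 in fat and steady or variable members named outside it were chosen after their values were seen. Other lists are counts with up to 3 examples by smallest p.

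Alternatives were DESeq2 size factors, upper quartile factors, no filter, a filter of at least 1 CPM in 3 libraries, limma voom (limma 3.58.1), the DESeq2 1.42.0 test, no robust step, other libraries in the fit, an adjusted p under 0.1, the replicate number as a block, removal of trends on GC share and length, and each library left out. Library totals alone were added after seeing the data. Derl1, Manf, Hyou1 and Atf6 had no RefSeq promoter entry in the table used.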

Additional observations from a re-analysis of the deposited data

How the results depend on the processing

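In the tissue contrasts, library totals alone (added after seeing the data) called 15 members in WT and 15 in KO. In WT these were 9 higher (61.1% of genes) and 6 lower (17.1% of genes), and in KO 8 higher (61.8%) and 7 lower (16.0%). The members' medians were -0.14 in WT and -0.15 in KO, against 0.92 and 0.91 for all genes. Removal of GC and length trends gave a WT median of -1.22 (-0.17 for all genes, from 0.12), and -1.21 with the replicate block (-0.18 for all genes). With library totals, values called under at least one of the scalings changed sign in WT for Canx (0.095), Xbp1 (0.030), Atf4 (0.22), Dnajb9 (0.19), Sel1l (0.40), Edem1 (0.41) and Ppp1r15a (0.70). In KO they did so for Atf4 (0.25), Sel1l (0.34), Syvn1 (0.19), Edem1 (0.10), Ppp1r15a (0.71) and Sec61b (0.0094). Values called under neither scaling also changed sign, for Trib3 in WT and for Trib3, Sdf2l1 and Creld2 in KO. No other setting reversed a called value, but such settings ended 14 calls of 6 members in WT (Xbp1 and Sdf2l1 in 4 settings each, Edem1 and Chac1 in 2, Sel1l and Creld2 in 1) and 21 calls of 6 members in KO. In KO these were Syvn1 in 9 settings (adjusted p = 0.050 to 0.13), Manf in 5, Hyou1 in 3, Wfs1 in 2, and Ddit3 and Atf4 in 1 each.

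In liver, members called numbered 2 without the filter, 1 with DESeq2 and 1 with the replicate block, and 0 in the other settings. Genes called in liver numbered 46 at an adjusted p under 0.1, 378 without the filter, 139 with DESeq2, 3 with voom, 3 without the robust step, 1 with the other libraries in the fit, 4 with GC and length trends removed, 10 with these and the block, and 5 to 34 with a library left out. In fat they numbered 2 at an adjusted p under 0.1, 29 without the filter, 43 with DESeq2, 3 with the other libraries in the fit and 0 to 1 with a library left out. For the difference, DESeq2 called 1 member and 199 genes, no filter gave 21 genes, and leaving out a library gave 0 to 34. The cause of these shifts was not tested.

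Same-numbered libraries of the groups compared correlated at -0.03 to 0.17, and only the pair of WT and KO WAT libraries numbered 2 exceeded 0.1. Such values across genes cannot tell if libraries of the same number came from the same animal. The main fits treated the libraries as unpaired, and the replicate number as a block was an alternative. With the replicate block, 28 genes were called in liver and 0 in fat, and Hyou1 (log2 fold change -0.60) passed in liver with an adjusted p of 0.044. In the KO tissue contrast the block ended the Syvn1 call (adjusted p = 0.078) and added Creld2 (adjusted p = 0.011), and it changed no other member's call. Low counts limit Asns, Chac1 and Derl3 in liver most.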
